A study of Mus musculus with 3 samples.

Results

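Aquaporins are membrane channels that let water, and in some members glycerol and urea, cross cells along osmotic gradients. The genes described are Aqp1, Aqp3, Aqp5, Aqp9 and Aqp11, taken by name as members of the family. They are 5 of the 24335 genes in the deposited table of single cells of mouse epididymis. Sperm that leave the testis pass through this coiled tube in the order caput, corpus, cauda, maturing on the way and waiting in the last. Each region was 1 library from wild-type, untreated C57BL/6 mice 56 days old. With 1 library per region, a difference between regions cannot be told apart from a difference between libraries, and no test across samples was made.

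Most of the fluid that leaves the testis is taken up before sperm reach the cauda, and the epithelium concentrates and acidifies what remains. Principal cells secrete proteins and take up fluid, clear cells pump protons, and basal cells lie against the basement membrane. AQP9 is known as an aquaglyceroporin of the apical membrane of principal cells. AQP1 is known from vessel endothelium and from the efferent ducts that lead into the caput, AQP3 from basal layers of epithelia, and AQP5 from glands. AQP11 is an intracellular aquaporin that is also known from the testis.

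The 5 genes lie on 5 chromosomes (GENCODE M21 annotation, GRCm38). Aqp1 is at chr6:55336432-55348555 on the plus strand, with 4 exons. Aqp3 is at chr4:41092722-41098183 on the minus strand, with up to 6 exons and with Aqp7 as a neighbour. Aqp5 is at chr15:99590782-99594829 on the plus strand, with up to 5 exons, between Aqp2 and Aqp6. Aqp9 is at chr9:71110659-71168682 on the minus strand, with up to 10 exons, and it is overlapped on the plus strand by an antisense gene and a processed pseudogene. The sources used here do not say whether counting used strand, so reads of Aqp9 and of its antisense partner cannot be told apart. Aqp11 is at chr7:97724006-97738289 on the minus strand, with up to 3 exons.

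The bases before the start sites of the 3 aquaporins that gave most of the counts are shown because their cell patterns differ most. They come from RefSeq (GRCm38.p6), run 5′ to 3′ on the gene's strand, and leave out bases in annotated exons. They lie at chr6:55336049-55336298 for Aqp1, at chr9:71162634-71162883 for the second of 2 start sites of Aqp9, and at chr7:97738290-97738497 for Aqp11. Capitals mark the ETS motif.
Aqp1: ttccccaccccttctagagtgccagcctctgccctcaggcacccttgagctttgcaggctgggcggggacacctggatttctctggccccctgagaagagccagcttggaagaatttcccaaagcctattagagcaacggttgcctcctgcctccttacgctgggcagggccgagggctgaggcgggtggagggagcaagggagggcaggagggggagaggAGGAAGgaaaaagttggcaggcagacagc
Aqp9: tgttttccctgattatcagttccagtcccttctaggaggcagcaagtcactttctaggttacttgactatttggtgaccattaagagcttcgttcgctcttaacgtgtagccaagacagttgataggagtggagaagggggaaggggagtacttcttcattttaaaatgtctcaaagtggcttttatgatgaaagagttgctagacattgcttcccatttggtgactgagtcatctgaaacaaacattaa
Aqp11: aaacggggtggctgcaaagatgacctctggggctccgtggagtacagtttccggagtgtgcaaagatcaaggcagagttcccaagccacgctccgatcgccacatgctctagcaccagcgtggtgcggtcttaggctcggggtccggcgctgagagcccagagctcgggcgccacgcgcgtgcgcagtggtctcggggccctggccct
Both strands of 250 bases before each start were searched for short motifs, 3 of which are reported. The ETS motif AGGAAG, whose factors are known from endothelial genes, was 29 bases before the Aqp1 start, and 29.5% of 32851 windows of that length held it. The GC box GGGCGG was in the Aqp1 window as well, and 32.7% of windows held it. Neither of these, nor the TATA box TATAAA (12.4% of windows), was in the stretches shown for Aqp9 and Aqp11, which says nothing of other motifs or of the Aqp9 start not shown. These matches are descriptions of letters, not of binding.

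Values are unique molecular identifiers (UMIs), each standing for 1 captured transcript, summed over the cells of a class and divided by all UMIs of that class on the counts-per-million scale (CPM). Each level comes with its exact Poisson 95% interval, which measures counting error and nothing else; a count of 0 is given the upper limit of 3 counts. CPM values are not per length, so levels were not compared between genes. The caput, corpus and cauda libraries held 4961, 4959 and 4925 cells and 41500792, 21495211 and 18341476 UMIs. Median UMIs per kept cell were 5077, 2654 and 2198, and 23 barcodes occurred in more than 1 library. More than 20% of UMIs were mitochondrial in 3.38% of cells in the caput library, 28.5% in the corpus library and 25.9% in the cauda library.

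Cells were put in classes by lists of marker genes that hold no aquaporin, and 81.5%, 70.0% and 55.4% of kept cells got a class. The principal gate held 2232 caput, 1469 corpus and 623 cauda cells, the basal gate 396, 174 and 74, and the endothelial gate 171, 41 and 15. The stromal cells (fibroblasts, smooth muscle and pericytes) numbered 264, 495 and 1071. As the gates require, the basal list stood at 2687, 2625 and 3230 CPM in basal cells against 121, 69.1 and 26.9 CPM in principal cells. The endothelial list stood at 9554 and 6792 CPM in caput and corpus endothelial cells against 59.5 and 40.9 CPM in principal cells. The principal list stood at 174301, 80769 and 61340 CPM in principal cells but also at 23425, 14689 and 4106 CPM in basal cells. In every class of at least 30 cells that list stood at 6.15% or more of its principal level. For this reason most levels of Aqp1, Aqp9 and Aqp11 outside a source class are set beside a list level. That is the level the gene would have there if it followed the marker list of the source class. The source class was endothelial for Aqp1 and principal for Aqp9 and Aqp11. For Aqp1 none was made in the cauda, where the endothelial gate had 15 cells.

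Aqp9 transcripts came mostly from principal cells in all 3 regions, and the level in those cells was lowest in the caput. Of its UMIs, 489 of 622 in the caput, 416 of 617 in the corpus and 238 of 402 in the cauda came from principal-gate cells. These are 78.6%, 67.4% and 59.2% of its UMIs from 45.2%, 30.4% and 13.0% of the cells. Its level in principal cells was 20.5 CPM (18.7 to 22.4) in the caput, 47.2 CPM (42.7 to 51.9) in the corpus and 70.3 CPM (61.6 to 79.8) in the cauda, and these intervals did not overlap. A principal cell held at most 8 Aqp9 UMIs. The share of principal cells with an Aqp9 UMI was 16.3% (exact binomial interval 14.8 to 17.9), 19.3% (17.3 to 21.4) and 23.3% (20 to 26.8), at median depths of 7312, 3252 and 2337 UMIs per cell. In caput basal cells the share was 1.52% and in corpus basal cells 4.60%, at medians of 6002 and 3668 UMIs. After the 2226, 1466 and 502 principal cells of sufficient depth were thinned to 1000 UMIs each, the shares were 1.84%, 3.55% and 5.98%, in the same order.

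To judge sizes, a gene passed the rule used here if 1 side was at least 2-fold the other, the exact binomial interval of the ratio excluded 1 and the higher side held at least 50 UMIs. The rule describes these libraries and is no test of regions. Corpus principal cells had 2.30-fold (2.01 to 2.62) the caput level of Aqp9, which passed, as did 11.7% of 11639 genes in that direction and 17.9% in the other. Where each cell weighed the same, caput stood at 0.521 of corpus, and the rule was not met. Cauda principal cells had 3.42-fold (2.92 to 4.01) the caput level, which passed with 10.4% of 11451 genes, while 20.6% were higher in the caput. The cauda level was 1.49-fold (1.27 to 1.75) the corpus level and did not pass; 6.37% of 8556 genes were past the rule toward the cauda and 10.5% toward the corpus.

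Against the other cells of the same library, principal cells had 2.72-fold (2.24 to 3.32) the Aqp9 level in the caput, 2.92-fold (2.46 to 3.48) in the corpus and 6.36-fold (5.19 to 7.80) in the cauda. All 3 passed the rule, as did 4.59%, 5.84% and 7.45% of all genes. The other cells include those without a class, where Aqp9 stood at 11.5, 25.2 and 22 CPM against list levels of 9.48, 26.0 and 21.5 CPM.

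Outside principal cells Aqp9 was mostly near its list level. Basal cells had 1.80 CPM (0.660 to 3.91) in the caput and 7.35 CPM (3.18 to 14.5) in the corpus, where the list levels were 2.76 and 8.58 CPM. In 74 cauda basal cells 0 UMIs were found, against a list level of 4.70 CPM. Clear cells had 2.72, 10.3 and 10.5 CPM beside list levels of 3.54, 9.04 and 11.7 CPM. The cauda clusters named clear differed. The one led by Clcn5 and Atp6v1g3 had 0 Aqp9 UMIs in 126 cells. The one led by Atp6v1g3 and Slc26a3 had 45.5 CPM (30.2 to 65.8) from 28 UMIs in 40 deep cells (median 11698 UMIs), 27 of them ungated. Fibroblasts had 0 UMIs in the caput, 7.68 CPM in the corpus and 2.16 CPM (1.03 to 3.96) in the cauda, beside 3.07, 6.67 and 6.23 CPM. An exception was the caput ciliated gate, with 24.8 CPM (14.4 to 39.7) beside a list level of 2.53 CPM. Of its 17 Aqp9 UMIs, 11 came from 11 cells of a small unnamed cluster described with Aqp11.

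**Figure D1:**
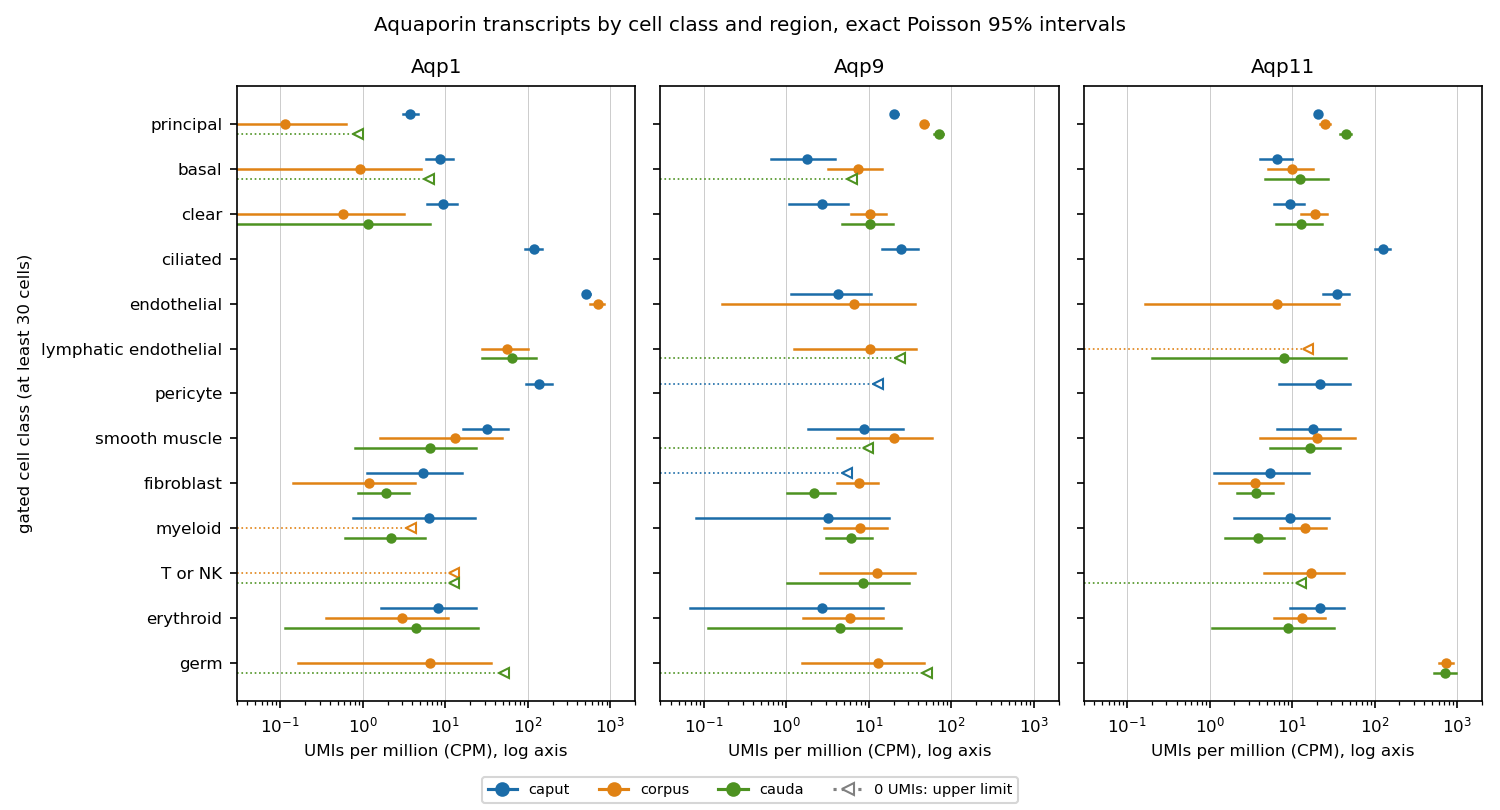
Levels of Aqp1, Aqp9 and Aqp11 in CPM of UMIs on a log axis, by class of at least 30 cells (rows) and region (colours); points are sums over cells, bars exact Poisson 95% intervals, and open triangles the upper limit for 0 UMIs. Aqp1 is highest in endothelial cells (513 and 700 CPM), Aqp9 in cauda and corpus principal cells (70.3 and 47.2 CPM) and Aqp11 in germ cells (738 and 722 CPM).

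Principal cells are not uniform along the duct, and Aqp9 differed among their clusters. In the caput, 8 clusters were named principal. The one led by Lypd8, Ppy and Lcn12 had 4.49 CPM (2.91 to 6.63; 25 UMIs in 504 cells). The one led by Teddm2 and Cst12 had 27.7 CPM (23.9 to 31.9; 193 UMIs in 701 cells), 6.17-fold more, at a near equal median depth (7690 and 7725 UMIs). Another cluster, led by Wfdc18 and Ankrd1 with the cell division genes Cenpf and Mki67, had 7.44 CPM (2.73 to 16.2). The other 5 lay between 13.7 and 23.4 CPM. In the corpus, 7 clusters ran from 25.6 CPM (16.3 to 38.5), where Defb21, Muc15 and Lcn5 led, to 53.4 CPM (46.3 to 61.2), where Dapl1, Defb22 and Pate1 led. Those corpus extremes differed 2.09-fold. The single cauda cluster named principal had 66.6 CPM (59.4 to 74.5). Its interval overlapped those of 3 corpus clusters and none of the caput. Among those 3 was a shallow cluster led by Gm23935 and Gm24270 (median 1701 UMIs), with 98 of 348 cells in the principal gate.

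**Figure D2:**
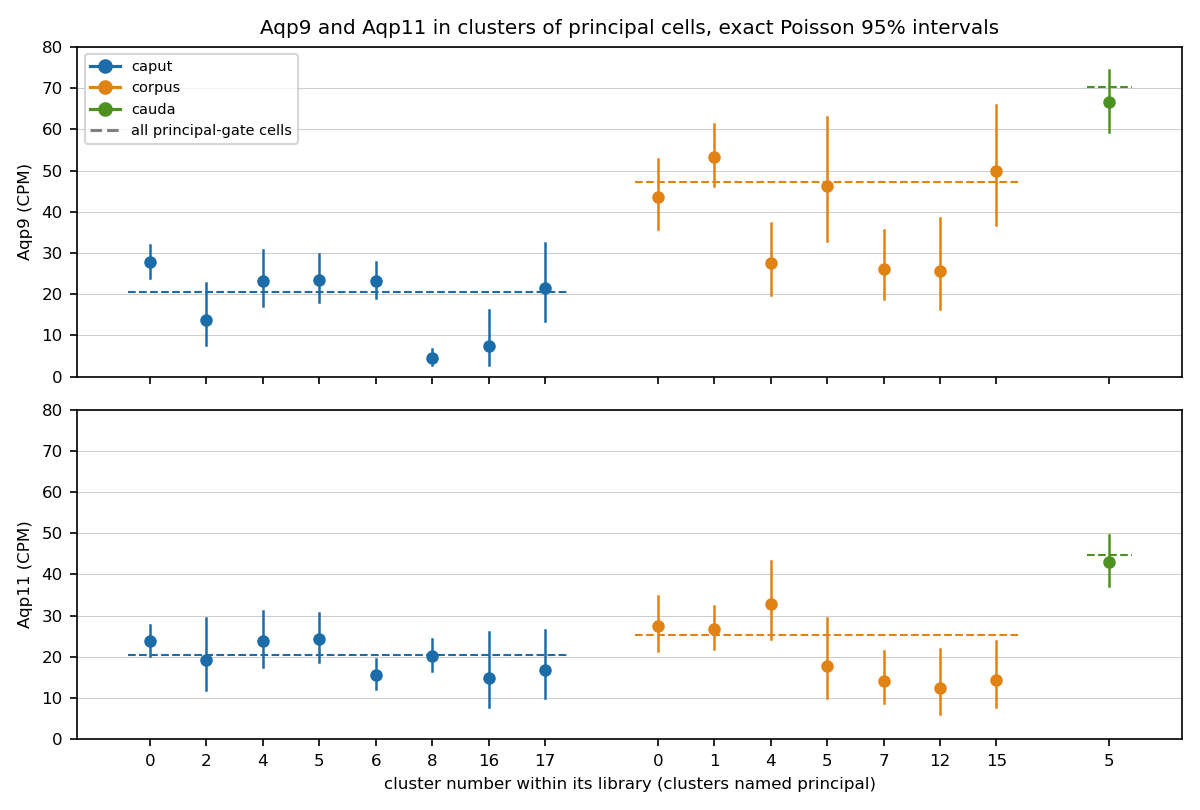
Aqp9 (upper) and Aqp11 (lower) in each cluster named principal, in CPM of UMIs on a linear axis from 0, with exact Poisson 95% intervals; dashed lines are all principal-gate cells of the region. Aqp9 drops to 4.49 CPM in caput cluster 8, where Aqp11 is at 20.1 CPM, close to the caput line.

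Aqp11 was found in principal cells of every region, was highest there in the cauda, and was higher still in germ cells. Principal cells held 488, 222 and 151 of its 864, 567 and 331 UMIs. The level was 20.5 CPM (18.7 to 22.4) in the caput, 25.2 CPM (22 to 28.7) in the corpus and 44.6 CPM (37.8 to 52.3) in the cauda. The caput and corpus intervals overlapped slightly, and that of the cauda lay apart. The cauda level was 2.18-fold (1.80 to 2.62) the caput level and passed the rule, with the 10.4% of genes given above. Cauda over corpus was 1.77 (1.43 to 2.19) and corpus over caput 1.23 (1.04 to 1.44), and neither passed. Where each cell weighed the same, corpus stood at 0.496 of cauda, which met the rule.

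In contrast to Aqp9, Aqp11 in principal cells stood at 0.960 (0.838 to 1.10) and 0.909 (0.764 to 1.08) of the level in the other cells of caput and corpus. Of the 376 Aqp11 UMIs in other caput cells, 88 came from the 15 cells of cluster 22, described below. Of the 345 in other corpus cells, 114 came from 70 germ-gate cells. Ratios without those cells were not computed. In the cauda, Aqp11 in principal cells was 3.67-fold (2.94 to 4.59) the level in the other cells, past the rule. Among the clusters named principal it ran from 14.9 to 24.2 CPM in the caput and from 12.3 to 32.8 CPM in the corpus, 1.62-fold and 2.67-fold. The highest corpus cluster, led by Gm10800 and Igkc, was shallow (median 1798 UMIs), with 280 of 707 cells in the principal gate. The low-Aqp9 caput cluster led by Lypd8 had 20.1 CPM (16.6 to 24.2) of Aqp11.

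Aqp11 was above its list level in several other classes, at low counts. Basal cells had 6.59 CPM (4.13 to 9.98) in the caput, 10.1 CPM (5.05 to 18.1) in the corpus and 12.6 CPM (4.64 to 27.5; 6 UMIs) in the cauda, beside list levels of 2.75, 4.58 and 2.98 CPM. Those 3 intervals overlap. Clear cells had 9.31 CPM (5.97 to 13.9) in the caput and 18.8 CPM (13.0 to 26.5) in the corpus, beside 3.53 and 4.82 CPM. In the cauda they had 12.8 CPM (6.40 to 23.0) beside 7.42 CPM. Caput endothelial cells had 34.8 CPM (23.9 to 48.8; 33 UMIs), beside 2.76 CPM, and corpus endothelial cells 1 UMI. Caput erythroid cells had 21.6 CPM (9.34 to 42.6; 8 UMIs) beside 5.69 CPM, and caput smooth muscle 17.7 CPM (6.49 to 38.5; 6 UMIs) beside 4.43 CPM. In the corpus, myeloid cells had 14.3 CPM (7.12 to 25.5) beside 4.04 CPM and erythroid cells 13.3 CPM (6.07 to 25.2) beside 5.54 CPM. Fibroblasts, at 5.43, 3.55 and 3.67 CPM, were near list levels of 3.07, 3.56 and 3.95 CPM.

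Germ cells, named by spermatid and sperm transcripts, had the highest Aqp11 of the gated classes with at least 30 cells. In the corpus 43 of 70 germ-gate cells held 114 Aqp11 UMIs, 738 CPM (609 to 887). In the cauda 18 of 45 held 42 UMIs, 722 CPM (521 to 976). The levels in those regions overlap, and list levels were 8.55 and 8.53 CPM. Corpus germ cells were 34.4-fold (27.8 to 42.4) above the other corpus cells, past the rule with 1.18% of genes. Cauda germ cells were 45.4-fold (32.0 to 62.9) above, but with fewer than 50 UMIs they could not pass, and 0.390% of genes did. They made up 20.1% of corpus and 12.7% of cauda Aqp11 UMIs from 1.45% and 0.940% of cells. The caput germ gate had 3 cells and 12 Aqp11 UMIs.

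The caput ciliated gate also passed the rule for Aqp11, at 125 CPM (100 to 155; 86 UMIs) and 6.57-fold (5.19 to 8.21) the other cells, with 6.05% of genes. Of these UMIs, 70 came from 11 cells of caput cluster 22, which was given no name. That cluster is led by Prm1, Ldhc, Meig1, Fabp9, Cox8c and Crisp2. Aqp11 stood at 579 CPM (451 to 731) in the 11 cells, an interval that overlaps those of the corpus and cauda germ gates. Whether they are germ cells was not tested. Those 11 cells had 0 UMIs of the sperm protamine Prm1, 5 of Tnp1 and 6 of Foxj1, and the cluster's 1 germ-gate cell held 1011 Prm1 UMIs. The 77 gate cells of the ciliated cluster had 15 Aqp11 UMIs, 28.1 CPM (15.7 to 46.4). Without the cells of cluster 22 the gate stood at 1.36-fold (0.776 to 2.23), so its Aqp11 value rested on them.

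Aqp1 was highest in endothelial cells. The caput endothelial gate held 487 of 1184 Aqp1 UMIs, and 120 of its 171 cells (70.2%) had at least 1. Its level was 513 CPM (468 to 561). The corpus endothelial gate held 106 of 165 UMIs, 700 CPM (573 to 847), in 18 of 41 cells. In the cauda 15 endothelial cells held 17 of 68 UMIs, 396 CPM (231 to 634), too few cells for a comparison. These gates took 41.1%, 64.2% and 25.0% of Aqp1 UMIs from 3.46%, 0.849% and 0.313% of cells.

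Endothelial cells had 29.8-fold (26.5 to 33.5) the Aqp1 level of other caput cells and 251-fold (181 to 351) that of other corpus cells. Both passed the rule, as did 6.67% and 1.06% of genes. Caput over corpus was 0.732 and did not pass; 9.42% of 3196 genes were past the rule toward the caput and 1.06% toward the corpus. In the corpus, 1 cell with 15944 UMIs held 52 of the 106 Aqp1 UMIs. Without it the corpus level was 399 CPM (300 to 520) in 40 cells, with an interval that overlaps the caput's, so the order of caput and corpus rested on that cell. Without the 5% of cells with the most UMIs in each library, caput over corpus was 1.77.

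Among classes of at least 30 cells, pericytes and ciliated cells of the caput came next in the order of Aqp1 levels, and they overlapped. The 36 caput pericytes had 138 CPM (94.1 to 194), beside 198 CPM if Aqp1 followed the endothelial list, which stood there at 38.6% of its endothelial level. Lymphatic endothelial cells, the lining of lymph vessels, had 56.6 CPM (28.2 to 101) in 43 corpus cells and 63.8 CPM (27.6 to 126) in 32 cauda cells. The corpus list level was 432 CPM, as the endothelial list stood there at 61.7% of its endothelial level. That list level scales with the corpus endothelial level of Aqp1 (700 CPM), which was 399 CPM without the deep cell described above. Only 19 caput cells were lymphatic, and 7 of them held 21 UMIs, 172 CPM (106 to 263), an interval that overlaps those of pericytes and ciliated cells. Caput smooth muscle had 32.4 CPM (16.2 to 58.0), beside a list level of 26.6 CPM. Fibroblasts were low, at 5.43, 1.18 and 1.94 CPM.

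Stromal cells as a whole had 40.9 CPM of Aqp1 (30 to 54.6; 46 UMIs) in the caput, 2.16 CPM (0.588 to 5.53) in the corpus and 2.22 CPM (1.11 to 3.97) in the cauda. The caput value lay 19-fold (6.92 to 72.5) above the corpus and 18.4-fold (9.40 to 39.4) above the cauda, but with fewer than 50 UMIs neither passed. Pericytes held 32 of the 46 caput UMIs. A looser gate, which lets in cells that also carry markers of another class, gave 32.9 and 30.5, both past the rule. Classes from clusters gave 2.59 against the cauda. The share of all genes past the rule was not computed for stromal cells. The make-up of the stromal class also differed between regions. From caput to cauda it held 36, 5 and 4 pericytes, 88, 43 and 80 smooth muscle cells, and 140, 447 and 987 fibroblasts. Fibroblasts and smooth muscle had overlapping Aqp1 intervals across regions, and neither passed the rule in any pair. In smooth muscle, caput over cauda was 4.91-fold (1.07 to 45.6). The part of make-up in the stromal ratios was not tested.

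Caput principal cells had 90 Aqp1 UMIs, 3.78 CPM (3.04 to 4.64), beside an endothelial list level of 3.19 CPM. Corpus principal cells had 1 UMI and cauda principal cells 0, with an upper limit of 0.886 CPM. Caput over corpus was 33.3-fold, with an interval from 5.83 to 1331. Over the cauda it was 4.26-fold when the cauda was set to the floor of 3 counts, and the exact interval began at 3.40. Both ratios pass the rule, as did 17.9% of 11639 and 20.6% of 11451 genes in those directions. With classes from clusters, caput over corpus was 2.28 (1.47 to 3.67), since the corpus clusters named principal held 25 Aqp1 UMIs, 19 of them in a cluster led by cell division genes; with each cell weighing the same it was 13.9 and with the looser gate 21.8. The caput level in gated cells lies at its list level, while the corpus level lies below its own (4.22 CPM). Corpus list levels of Aqp1 scale with the corpus endothelial level of 700 CPM, which was 399 CPM without 1 deep cell. They were not recomputed without it. Basal cells had 8.69 CPM in the caput beside 10.8 CPM, and 0.919 CPM in the corpus beside 5.88 CPM. Clear cells had 9.31 CPM (5.97 to 13.9) in the caput beside 5.65 CPM.

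Ciliated cells of the caput stood apart from these. Their gate had 118 CPM of Aqp1 (93.7 to 147; 81 UMIs in 28 of 92 cells), 4.36-fold (3.44 to 5.47) the other caput cells, which passed the rule along with the 6.05% of genes given above. The ratio was 2.38 with each cell weighing the same, 2.82 without the cells with the most UMIs and 7.79 with classes from clusters. The endothelial list level there was 9.46 CPM. All 81 UMIs lay in the 77 gate cells of caput cluster 10, at 152 CPM (121 to 189). That cluster is led by Ccdc153, Tmem212 and Sntn, which are genes of motile cilia. Its gate cells held the cilia regulator Foxj1 at 255 CPM, the estrogen receptor Esr1 at 358 CPM and the endocytic receptor Lrp2 at 215 CPM. Of the endothelial genes, Kdr stood at 107 CPM, Pecam1 at 3.75 CPM and Cdh5 at 0 UMIs.

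The same cluster held 35 cells that no gate took, with 58 Aqp1 UMIs in 24 cells, 385 CPM (292 to 498). In them Lrp2 was at 524 CPM, Esr1 at 418 CPM, Kdr at 206 CPM and Foxj1 at 26.5 CPM. Pecam1 had 1 UMI and Cdh5 had 0. Cells of the efferent ducts were not named. Of their 3 markers, Cubn had 0 UMIs in the cluster's gated and ungated cells, while Amn had 6 and 2. Over the whole cluster Amn stood at 11.0 CPM and Lrp2 at 277 CPM. The other caput clusters had at most 0.685 CPM of Amn and 49.4 CPM of Lrp2. Lrp2 was also at 272 CPM in the cauda cluster named principal. Whether cells of cluster 10 come from the efferent ducts was not tested. Of all 401 Aqp1 UMIs in ungated caput cells, 67.8% lay in the endothelial cluster and 14.5% in cluster 10.

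**Figure D3:**
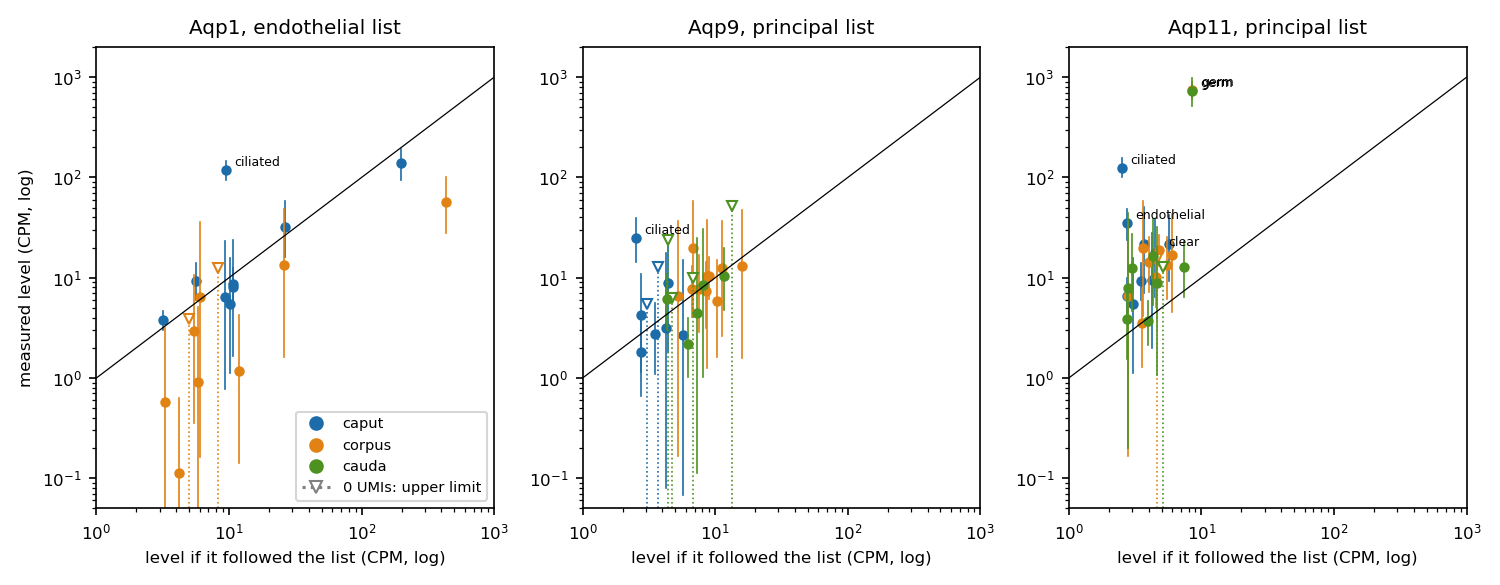
Measured level against list level, both in CPM of UMIs on log axes, for Aqp1 (endothelial list), Aqp9 and Aqp11 (principal list) in each class of at least 30 cells outside the source class; colours are regions, bars exact Poisson 95% intervals, triangles the upper limit for 0 UMIs and the line equality. Most Aqp9 points lie along the line, while Aqp11 in germ cells (738 and 722 CPM) and Aqp1 in ciliated cells (118 CPM) lie far above it.

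Aqp3 was rare, and T or NK cells held more of its few UMIs than any other class. It was listed at 0 in the caput, and it had 14 UMIs in the corpus and 8 in the cauda. The T or NK gate held 7 of the 14 corpus UMIs, in 7 of 93 cells (29.4 CPM, 11.8 to 60.7). It held 7 of the 8 cauda UMIs, in 6 of 89 cells (29.5 CPM, 11.9 to 60.8). The regions did not differ beyond counting error. The T cell receptor gene Trbc2 was found in 5 of the 7 corpus and 5 of the 6 cauda cells with Aqp3. Cd3e, of the same receptor complex, was found in 5 and 1 of them, and Cd3d in 4 and 4. The NK gene Nkg7 was found in 0 corpus cells and 1 cauda cell with Aqp3. In the basal gate, whose keratin genes defined it, Aqp3 had 1 UMI in 174 corpus cells and 0 in 74 cauda cells. The principal gate had 3 corpus UMIs, from 2 cells.

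Aqp5 was rare too. The caput held 7 UMIs of it and the corpus 20, and the cauda listed it at 0. In the corpus 12 UMIs came from 12 principal cells, 1.36 CPM (0.703 to 2.38), and 3 UMIs came from caput principal cells. The ratio of corpus to caput was 10.8 (2.92 to 59.7), but with fewer than 50 UMIs it could not pass the rule.

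Of the 7 other aquaporin genes looked up, Mip and Aqp12 were not in the table. Aqp6, known as an anion channel of intracellular vesicles, had 77 UMIs in 48 corpus principal cells, 8.73 CPM (6.89 to 10.9), against 0.713 CPM (0.416 to 1.14) in the caput. That is 12.2-fold (7.17 to 22.1), past the rule with the 11.7% of genes given above. It was listed at 0 in the cauda. Aqp2, the vasopressin-regulated channel of the kidney, was found in fibroblasts, with 19 UMIs in the corpus (11.2 CPM, 6.76 to 17.5) and 50 in the cauda (10.8 CPM, 8 to 14.2). Those 2 levels overlap. Aqp4, the main aquaporin of astrocytes, had 21 UMIs in caput ciliated cells (30.6 CPM, 18.9 to 46.8) and 9 in cauda basal cells (19.0 CPM, 8.67 to 36.0). Aqp7 had 17, 19 and 16 UMIs by region. Aqp8 had 15 in the corpus, 11 of them in principal cells, and it was listed at 0 in the caput and cauda.

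Cells with both Aqp9 and Aqp11 were deep cells. In principal cells 100 caput, 66 corpus and 53 cauda cells had a UMI of each, where the product of the 2 shares gives 58.9, 32.4 and 23.7. Cells with both had medians of 24446, 14708 and 17071 UMIs, against 7312, 3252 and 2337 in the class. The part of depth in this overlap was not tested.

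The genes around the aquaporins in fluid transport followed several regional orders in principal cells, and few followed that of Aqp9. A list of 18 genes covered sodium, chloride and bicarbonate transport. Caput against corpus, 13 were measured, of which 5 passed toward the caput and 3 toward the corpus. Caput against cauda, 14 were measured, with 7 toward the caput and 2 toward the cauda. Corpus against cauda, 9 were measured, with 2 toward the corpus and 3 toward the cauda. The list's median log2 ratios (first over second region) were 0.87, 1.28 and -0.20, against 0.11, 0.20 and 0.10 over all genes measured. These counts stand beside the shares of all genes given above.

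Slc9a3r1, the scaffold NHERF1 that holds sodium-proton exchangers at the membrane, had the region order of Aqp9, with 19.6, 128 and 336 CPM from caput to cauda. It passed the rule at every step (6.51-fold corpus over caput, 2.63-fold cauda over corpus). Its partner Slc9a3, the apical exchanger NHE3, was picked after its values were seen: it stood at 0.0420, 3.51 and 23.3 CPM, with 1, 31 and 79 UMIs. Car2, a carbonic anhydrase, and Atp1b1, a sodium pump subunit, were highest in the corpus instead. Car2 had 161, 354 and 28.1 CPM, and Atp1b1 had 117, 327 and 36.6 CPM. Slc4a4, a sodium bicarbonate cotransporter, ran the other way, with 49.5, 0.793 and 1.48 CPM.

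**Figure D4:**
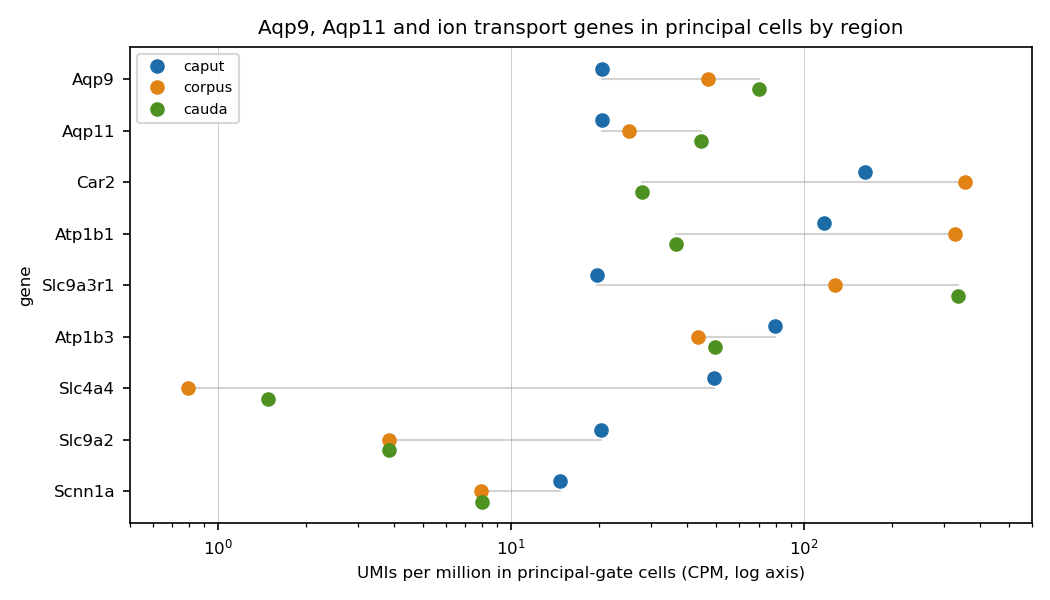
Aqp9, Aqp11 and 7 genes of the sodium, chloride and bicarbonate list, from the 8 with the most UMIs in principal-gate cells, in CPM of UMIs on a log axis; points are sums over cells of a region, colours are regions and grey lines join them. Slc9a3r1 has the region order of Aqp9, whereas Car2 and Atp1b1 peak in the corpus and Slc4a4 in the caput.

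Of the genes that handle glycerol and urea, solutes that AQP9 conducts, 8 were measured caput against corpus, with 0 past the rule toward the caput and 2 toward the corpus. Caput against cauda gave 0 and 1 of 8, and corpus against cauda gave 2 and 1 of 7. Over all genes the shares were 17.9% and 11.7%, 20.6% and 10.4%, and 10.5% and 6.37% in the same pairs. Medians were -0.65, 0.23 and 0.89, against 0.11, 0.20 and 0.10 over all genes. Mgll, which frees glycerol from monoacylglycerol, had 92.3, 244 and 131 CPM. Gk, glycerol kinase, had 100, 187 and 94.5 CPM and did not pass. Pnpla2, a triglyceride lipase, and Gpd1, a glycerol phosphate dehydrogenase, did not pass in any pair either, with 32.8, 29.6 and 24.5 CPM and with 19.0, 14.7 and 12.7 CPM.

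Of the genes that respond to osmolarity, 7 were measured in every pair. Caput against corpus gave 1 past the rule toward the first and 3 toward the second, caput against cauda 1 and 2, and corpus against cauda 0 and 1. The same all-gene shares (17.9% and 11.7%, 20.6% and 10.4%, 10.5% and 6.37%) apply. Medians were -0.19, -0.36 and -0.17, beside all-gene medians of 0.11, 0.20 and 0.10. The taurine carrier Slc6a6 had 6.88, 51.5 and 113 CPM and passed at every step in the order of Aqp9. The kinase Sgk1 had 10.7, 93.4 and 113 CPM and passed from the caput to both other regions. Slc5a3, the inositol carrier, was higher in the caput, with 44.4, 21.5 and 18.6 CPM, and the kinase Wnk1 was near level, with 37.0, 35.7 and 32.2 CPM.

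Of 4 genes of hormone response, 2 passed the rule toward the caput against the corpus and 3 against the cauda, with 0 the other way; of all genes, 17.9% and 20.6% passed toward the caput. Between corpus and cauda 2 were measured and 0 passed either way. Medians were 1.72, 1.36 and 0.06, where all genes had 0.11, 0.20 and 0.10. Esr1 had 33.5, 17.6 and 16.5 CPM and passed against the cauda. Hsd11b2 had 3.86, 0.680 and 1.18 CPM, and the mineralocorticoid receptor Nr3c2 had 3.53, 0.567 and 0.591 CPM.

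The genes most like each aquaporin were ranked by Pearson r of log2(CPM + 10) over 31 sums of a region and class, among 11610 genes with at least 200 UMIs. The points share libraries and classes, so r is a description. For Aqp1 they were Arhgef15 (0.93), Tmem252 (0.92), Emcn, Ptprb and Myct1 (0.91 each), of which Emcn and Ptprb are in the endothelial list. For Aqp9 they were Prom2 (0.84), Cuzd1 (0.82), Tm7sf2, Spns3 and Asb11 (0.81 each). For Aqp11 they were Cabyr, Hrasls5, March10, Ankef1 and Smkr-ps (0.92 each). Among these sums Aqp11 stood at 738 and 722 CPM in germ cells and at most 125 CPM in the others. Its r values without the germ sums were not computed. With a pseudocount of 1 CPM, 3, 1 and 1 of the 5 genes were again among the first 5. Aqp3 and Aqp5 had too few UMIs to rank.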

How the data were processed

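Single cells of 3 epididymal regions (caput, corpus, cauda; 1 library each) were captured with the Singleron GEXSCOPE kit and sequenced in paired reads, per the labels' protocols. STAR 2.7.3a, UMI-tools and the build GRCm38.p6 are named in the submitters' processing notes. The authors deposited raw UMI counts per gene and cell, not normalized. Each gene seen in a library was in at least 3 of its cells, so a gene listed at 0 in a library may have been removed, and no bound was given for it.

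Cells with under 200 detected genes were left out (22, 128 and 140). A cell joined a class where its marker list reached a position of 0.5 between the background and typical level of that list, led the next class by 0.2 and held at least 3 UMIs; 169 of 175 marker genes were in the table. These thresholds were set after the data were seen, and 430, 689 and 675 cells lay within 0.05 of the lead. No doublet caller was run. Cells without the required lead stay ungated, which need not remove every mixed cell. Caput pericyte-gate cells held the endothelial list at 38.6% of its endothelial level. Corpus germ-gate cells held the principal list at 34.0% of its principal level. The cells with the top 5% of UMIs were left out as an alternative. Leiden clusters of each library (scanpy 1.11.5, resolution 1, 2000 variable genes, 30 components, without aquaporins) took a class name from at least 30 cells with 50% of gated and 20% of all cells in that class, unless their 10 leading genes held more markers of another class.

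UMI counts were summed per class and region. Ratios carry exact binomial intervals, shares exact Clopper-Pearson ones; all cover counting error only, and the 95% level and the floor of 3 counts apply throughout. Ratios were computed for all genes measured. Counts were simulated for 24335 genes. The size rule called all genes changed 3-fold or 4-fold in each pair of regions (100%) and 1.49%, 0% and 0% of those changed 1.5-fold. Genes to change were drawn only from those expected to reach 50 UMIs in the region with fewer UMIs, with counting noise alone. These shares largely follow from the rule's own limits and do not cover genes with fewer UMIs. Alternatives were a stricter and a looser gate (leads of 0.35 and 0.1), clusters as classes, a 20% mitochondrial ceiling, 500 detected genes, TMM factors (edgeR 4.0.16), sums without the 50 most abundant genes, equal weight per cell, thinning to 1000 UMIs, and 2 chosen after seeing the data: without cells that share a barcode, and without caput cluster 22. The genes named are all members, the 5 most like each, and up to 4 of each list by summed UMIs; others are said to be chosen after their values were seen. Members and lists were chosen with earlier results of these data known. A comparison of protein sequences was not made here. Some genes of these lists are counted but not reported here by name.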

Additional observations from a re-analysis of the deposited data

Results flagged for a closer look

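Each of these 3 levels was measured in a cluster, or part of one, that the comparisons between classes do not take as a group, and 11 of the 15 cells of caput cluster 22 also lie in the ciliated gate. Aqp1 stood at 385 CPM in the 35 ungated cells of caput cluster 10, above its level in the cluster's ciliated-gate cells (152 CPM). Aqp11 stood at 603 CPM (484 to 743) in the 15 cells of the unnamed caput cluster 22, where Aqp9 was at 75.4 CPM (37.6 to 135) from 11 UMIs. Aqp11 stood at 621 CPM (451 to 834) in the 10 cells of the unnamed corpus cluster 18, led by Ldhc, Meig1 and Cypt4, where Aqp9 had 1 UMI.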

How the results depend on the processing

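Of 45 ratios and 14 levels, no ratio that passed the size rule changed direction, and TMM factors, sums without the 50 most abundant genes and leaving out shared barcodes changed no ratio's side of the rule. With each cell weighing the same, Aqp9 caput over corpus in principal cells was 0.521 (no longer past the rule), Aqp11 corpus over cauda there 0.496 (now past it), Aqp11 of corpus principal over other cells 0.708, Aqp1 endothelial caput over corpus 1.21 and Aqp1 caput stromal over other cells 0.780. With classes from clusters, Aqp11 was 1.64 for basal caput over cauda, 0.749 for corpus principal, 0.232 for cauda basal and 1.81 for caput ciliated over other cells. Under that setting Aqp1 was 2.59 for stromal caput over cauda, 0.706 and 5.23 for caput and cauda stromal over other cells, and Aqp9 was 0.733 for caput ciliated cells. Levels that moved there were Aqp1 in caput principal (4.69 CPM), endothelial (330 CPM) and stromal cells (20.5 CPM) and Aqp9 in corpus principal cells (41.8 CPM). The looser gate gave Aqp1 stromal ratios of 32.9 (caput over corpus), 30.5 (caput over cauda), 2.39 (caput over other cells) and 0.486 (cauda over other cells), and Aqp1 at 426 CPM in caput endothelial and 64.7 CPM in caput stromal cells. The stricter gate gave 0.843 for Aqp1 and 0.446 for Aqp11 in caput stromal over other cells, and 24.1 CPM for Aqp1 in caput stromal cells. Without the cells with the most UMIs, Aqp1 was 1.77 for endothelial caput over corpus, 101 for corpus endothelial over other cells (fewer than 50 UMIs remained, so no longer past the rule), 4.84 CPM in caput principal and 289 CPM in corpus endothelial cells. Under that setting Aqp11 was 1.52 for cauda basal and 64.9 for cauda germ over other cells. Aqp1 of cauda stromal over other cells was 0.462 under the mitochondrial ceiling and 0.489 with at least 500 detected genes. Without caput cluster 22, caput ciliated over other cells was 1.36 for Aqp11 and 0.704 for Aqp9. Where not stated, the cause was not tested. Thinning lowered all 14 shares of cells with a UMI. No paired analysis was possible because each region is 1 library, and for the same reason no replicate could be left out. Depth limits Aqp3 and Aqp5, with at most 20 UMIs in a library, and the cauda endothelial gate, with 15 cells.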
